A study of Mus musculus with 6 samples.

Results

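The genes described here encode the enzymes and transporters that carry glucose into the cell, break it down to lactate, and divert part of it into the pentose phosphate pathway. The 33 genes were chosen as a fixed list of glucose and lactate transporters, glycolytic enzymes and their regulators, and pentose phosphate enzymes. All 33 were found by symbol among the 40808 gene IDs of the count table, and all 33 passed the filter on low counts. They were followed across 6 libraries of mouse spleen RNA from animals that had received a bone marrow transplant, where the labels name leukaemia cells as the source. The labels mark 3 libraries as receiving no Dox (replicates 4, 5 and 6) and 3 as receiving Dox (replicates 10, 11 and 12). They spell out neither Dox nor its dose or duration, and they give no genotype, transgene, strain, age or sex, and no type of leukaemia. They also do not say whether the libraries of a group came from separate animals, so the p-values measure only the spread between these libraries.

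Glycolysis turns glucose into pyruvate in a chain of cytosolic steps. Hexokinases and phosphofructokinases spend ATP early in the chain, and the steps from glyceraldehyde-3-phosphate dehydrogenase onward give ATP back. Lactate dehydrogenase regenerates NAD+, and growing lymphoid cells, leukaemic ones included, are known for making lactate even when oxygen is present. The pentose phosphate pathway branches off after hexokinase and supplies NADPH and ribose phosphate. Several of these steps are run by isoforms encoded by separate genes, and MYC and the hypoxia-inducible factors are known regulators of many of them.

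Promoter sequences are shown for 4 called genes, with windows that hold the motif described here, chosen after their values were seen. Ldha had the lowest log2 fold change among genes with more than 10 counts in every library, Slc16a3 the highest among those called, Pgk1 is an X-linked gene that fell, and Aldoa is a glycolytic gene that rose. Each sequence is the 250 bases before an annotated start site (RefSeq, GRCm38.p6), written 5′ to 3′ on the gene's strand, with capitals for the motif ACGTG on either strand. ACGTG holds the core that hypoxia-inducible factors bind, and the E-box that MYC binds, CACGTG, contains it on each strand.
Ldha, chr7:46845554-46845803, plus strand: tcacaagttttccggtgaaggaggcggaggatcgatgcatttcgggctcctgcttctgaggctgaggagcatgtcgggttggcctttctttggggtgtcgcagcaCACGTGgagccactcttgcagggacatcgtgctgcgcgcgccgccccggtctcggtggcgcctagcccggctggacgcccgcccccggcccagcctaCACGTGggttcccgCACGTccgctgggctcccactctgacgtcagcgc
Pgk1, chrX:106186850-106187099, plus strand: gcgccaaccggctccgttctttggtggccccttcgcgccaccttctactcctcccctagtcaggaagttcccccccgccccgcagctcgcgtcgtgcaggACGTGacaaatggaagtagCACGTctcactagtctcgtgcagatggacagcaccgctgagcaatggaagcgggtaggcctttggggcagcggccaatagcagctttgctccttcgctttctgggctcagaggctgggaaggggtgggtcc
Slc16a3, chr11:120948817-120949066, plus strand: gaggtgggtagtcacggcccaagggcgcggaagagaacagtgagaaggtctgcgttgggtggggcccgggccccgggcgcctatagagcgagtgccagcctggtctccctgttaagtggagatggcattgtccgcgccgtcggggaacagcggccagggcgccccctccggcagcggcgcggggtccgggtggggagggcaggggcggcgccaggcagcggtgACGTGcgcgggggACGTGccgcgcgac
Aldoa, chr7:126799179-126799428, minus strand: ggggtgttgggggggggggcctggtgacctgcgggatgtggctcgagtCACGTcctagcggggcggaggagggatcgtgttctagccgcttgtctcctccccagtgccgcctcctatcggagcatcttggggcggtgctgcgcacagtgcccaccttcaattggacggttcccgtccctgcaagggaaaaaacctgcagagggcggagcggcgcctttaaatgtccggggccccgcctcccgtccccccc
The Ldha window printed held CACGTG at 2 places and a further ACGTG match outside them, whereas the other Ldha window of the table held neither motif. Of the 3 Aldoa windows 1 held no ACGTG, and neither did the windows of Gapdh, Rpe and Pgls, which were also called. Over both strands ACGTG was present in 16.6% of the 32851 promoters of the table, in 20.7% of the 13728 promoters of tested genes and in 17 of the 48 promoters (35.4%) of the 32 listed genes that the table covers. By gene, it was present in 4 of the 12 listed genes that fell, 2 of the 3 that rose and 7 of the 17 others, against 24.3% of the 10681 tested genes in the table. CACGTG alone was present in 6.02% of all promoters, in 7.90% of those of tested genes and in 5 of the 48. By gene it was present in 1 of the 12 that fell, which is Ldha, in 0 of the 3 that rose and in 4 of the 17 others. These are matches of letters in a window, and no binding was measured.

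Total counts ran from 5541486 to 8725767 per library, and 3 counts corresponded to 0.34 to 0.54 CPM (counts relative to library size). The groups with and without Dox also differed in markers of cell types and in sex-linked genes, and the design does not separate these differences from Dox. Normalized CPM, that is each count relative to the size of its library, corrected for composition, of 20 T cell markers summed to 3415 to 3686 without Dox and 336 to 425 with Dox, and 17 of the 20 fell while 1, Cd7, rose. Summed CPM of 15 B cell markers went from 57.6 to 63.4 up to 2484 to 2621, and that of 15 neutrophil markers from 57.8 to 75.7 up to 2392 to 2544. Haemoglobin genes took 8.61% to 9.04% of counts without Dox and 14.1% to 15.9% with Dox. They did not move alike, as Hba-a1 and Hba-a2 rose by 0.95 and 1.01 in log2 units. Hbb-bs fell by 1.23, and Hbb-bt was not called (edgeR). All 15 B cell and all 15 neutrophil markers rose (edgeR), where 23.6% of all tested genes rose and 22.1% fell. Of these markers, 1 B cell and 2 neutrophil genes were at 0 in every library without Dox. Others, such as Blk and Mpo with means of 0.25 and 0.50 CPM without Dox, also entered the test through the libraries with Dox. The counts of markers that rose or fell are therefore descriptions. Of 15 proliferation genes 10 fell and 0 rose, and of 15 monocyte, macrophage and dendritic markers 7 rose and 3 fell. Platelet markers rose in 8 of 9 tested genes, erythroid markers in 8 of 14, stromal and endothelial markers in 5 of 12, and natural killer and cytotoxic markers in 4 of 7, while 2, 2 and 1 genes fell in the last 3 lists. The summed CPM of the natural killer and cytotoxic list was nevertheless lower with Dox, at 71.9 to 84.2 against 352 to 403, as Gzma went from 341 to 395 CPM to 0 in each library with Dox. Y-linked genes had 545 to 801 counts without Dox and 0 in each library with Dox. The libraries without Dox also had 193 to 324 counts of Xist, the RNA that coats the silenced X chromosome. The sex of the cells, whether of donor or host, and Dox thus cannot be told apart. All results below are from bulk RNA, in which fewer cells of a type and less RNA per cell cannot be told apart, and the part of these marker differences in them was not tested.

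Of the 33 genes, 12 fell and 3 rose with Dox. Calls were made where the edgeR quasi-likelihood test gave p under 0.05 after Benjamini-Hochberg adjustment over all 14110 tested genes. Together these 15 made 45.5% of the list, and 45.6% of all tested genes were called, so the share called was near the background. By direction, 36.4% of the list fell against 22.1% of all tested genes, and 9.09% rose against 23.6%. The median log2 fold change was -0.35 over the list and 0.07 over all tested genes. In 19 of the 33 genes (57.6%) no library of one group lay within the range of the other, against 59.6% of all tested genes. The 12 genes that fell stood mostly in the lower part of glycolysis, from Gapdh to the lactate dehydrogenases, where 7 of 8 genes fell and 0 rose. These counts include Ldhb and Slc16a3, which reached the filter level mainly in the group where they are high. Without that pair 11 of 31 genes fell and 2 rose, and 6 of 7 fell from Gapdh to Ldha. From the hexokinases to Tpi1, 2 of 10 fell and 1 rose, and of the 7 pentose phosphate genes 2 fell and 1 rose.

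**Figure D1:**
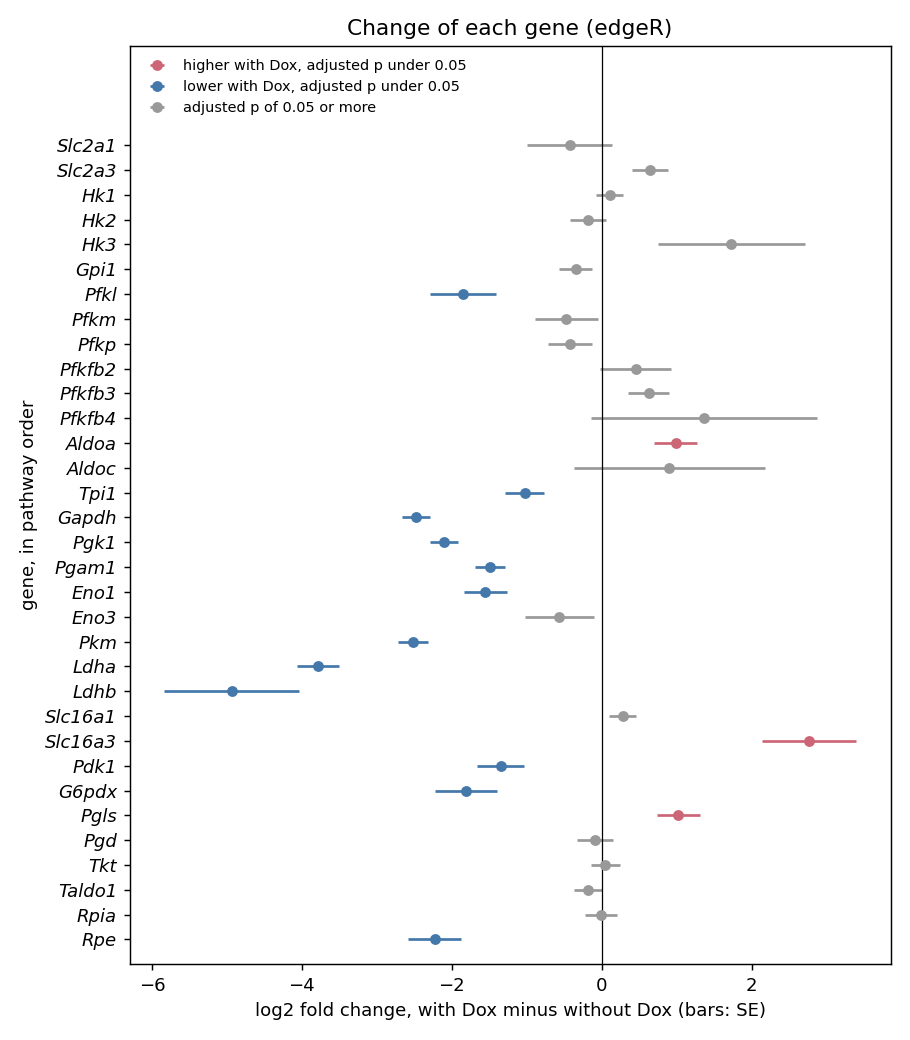
Log2 fold change of each of the 33 genes, with Dox minus without Dox (x axis), in pathway order from the top (y axis), with bars for the SE and colours for the edgeR call at an adjusted p under 0.05. The run of 12 genes that fell is densest from Gapdh to Ldhb, and 3 genes, Aldoa, Slc16a3 and Pgls, lie to the right as called.

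**Figure D2:**
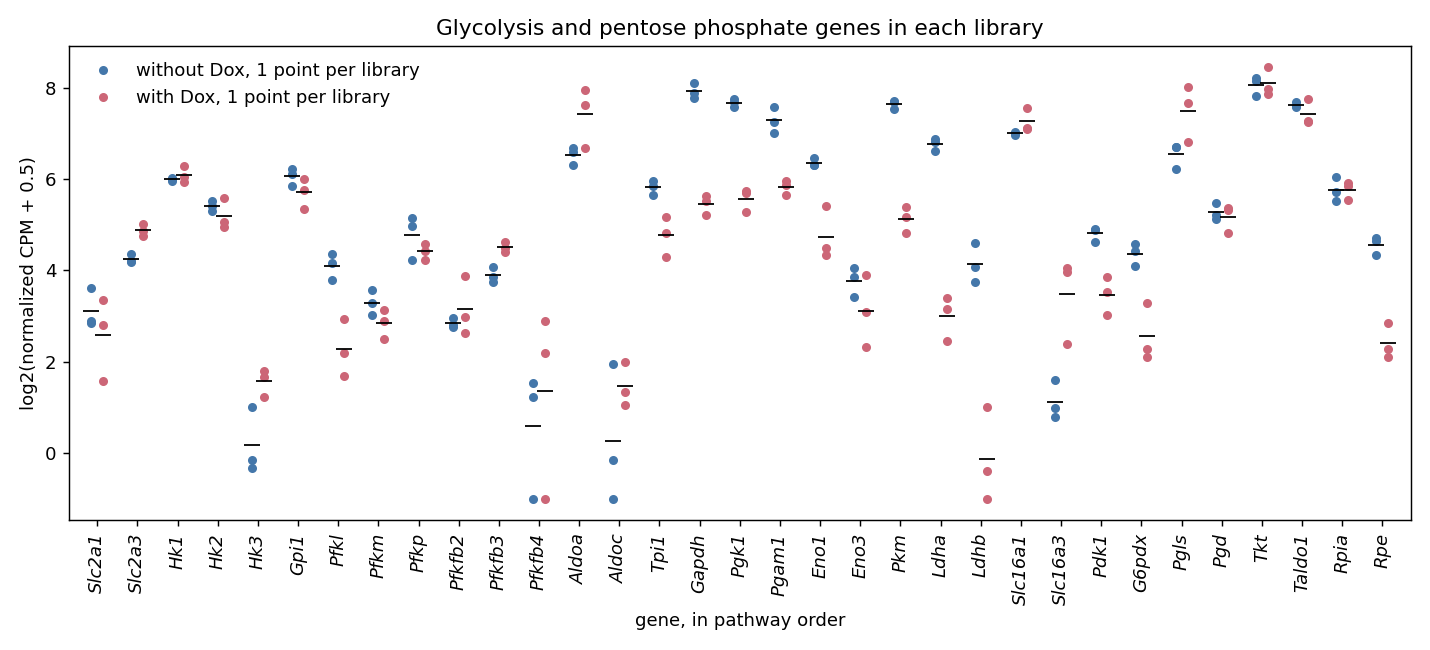
Level of each gene in each of the 6 libraries, as log2 of normalized CPM plus 0.5 (y axis), with blue points without Dox, red points with Dox and a dash for the mean of 3 libraries on this scale. Gapdh, Pgk1, Pkm and Ldha show separate clusters of points, whereas Hk1, Tkt and Rpia overlap.

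Glucose enters through facilitative transporters. Slc2a1, which encodes GLUT1, the transporter of most dividing cells, was at 6.86, 6.69 and 11.7 CPM without Dox and 6.53, 9.67 and 2.50 CPM with Dox. The groups overlapped, and the log2 fold change of -0.43 ± 0.56 (SE) did not pass the threshold (edgeR adjusted p = 0.568). It was -0.92 when Dox replicate 11 was left out and -0.07 when Dox replicate 12 was. Slc2a3, which encodes GLUT3, a transporter of high glucose affinity, was at 17.6, 20.1 and 18.0 CPM without Dox and 26.4, 28.7 and 31.6 CPM with Dox. The groups did not overlap, and its log2 fold change of 0.64 ± 0.24 (SE) stood just outside the threshold (edgeR adjusted p = 0.0538). It passed with upper-quartile factors, with library size only and with at least 10 counts required in every library (adjusted p from 0.0093 to 0.031). It did not pass in the other alternatives, where the log2 fold change went down to 0.24 with the length trend removed (adjusted p = 0.450).

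Hexokinases trap glucose in the cell by phosphorylating it, and none of the 3 genes passed the threshold. Hk1, the housekeeping and red cell isoform, was at 63.7, 64.4 and 61.2 CPM without Dox and 61.1, 65.8 and 77.1 CPM with Dox (log2 fold change 0.11 ± 0.18 (SE), edgeR adjusted p = 0.652). Hk2, the inducible isoform of many tumours, was at 45.1, 41.95 and 39.0 CPM without Dox and 33.1, 47.55 and 30.3 CPM with Dox (-0.18 ± 0.23 (SE), adjusted p = 0.557). In both genes the groups overlapped. Hk3, an isoform of myeloid cells, had 2, 2 and 9 counts without Dox and 22, 26 and 14 with Dox, and it entered the test only through the Dox libraries. Its log2 fold change of 1.73 ± 0.98 (SE) did not pass (edgeR adjusted p = 0.180). It was 2.70 without replicate 6 of the group without Dox and 1.32 without replicate 4 (adjusted p = 0.170 and 0.508). Neutrophil markers, given above, were higher in those same libraries, and their part was not tested.

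Gpi1, which converts glucose-6-phosphate to fructose-6-phosphate, was at 69.1, 57.4 and 74.4 CPM without Dox and 40.4, 53.7 and 63.9 CPM with Dox (-0.35 ± 0.22 (SE), edgeR adjusted p = 0.226). The next step, phosphofructokinase, is the committed one, and 1 of its 3 genes was called. Pfkl, the liver-type isoform, was at 13.3, 20.1 and 17.3 CPM without Dox and 2.72, 7.10 and 4.09 CPM with Dox. Every library with Dox lay below every library without it, and Pfkl fell by 1.85 in log2 units (SE 0.44, edgeR adjusted p = 0.0068). Pfkm, the muscle-type isoform, went from 9.43 ± 1.88 to 6.79 ± 1.57 CPM and Pfkp, the platelet-type isoform, from 28.0 ± 8.6 to 20.9 ± 2.5 CPM (SD, n = 3 each). Both overlapped between groups, with edgeR adjusted p-values of 0.394 and 0.274. Exons of Pfkm overlap Senp1 on the other strand, which had 186 to 369 counts without Dox and 496 to 548 with Dox, against 38 to 67 for Pfkm over all libraries. The last 300 bases of Pfkp lie within Pitrm1 on the other strand. Pitrm1 had 183 to 262 counts without Dox and 269 to 357 with Dox, against 90 to 207 for Pfkp over all libraries. Whether the counting used strand is not given in the sources used here.

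The PFKFB enzymes set the level of fructose-2,6-bisphosphate, the activator of phosphofructokinase, and none passed the threshold. Pfkfb3, the isoform with the strongest kinase activity, was at 14.03, 16.4 and 12.9 CPM without Dox and 22.05, 20.7 and 24.25 CPM with Dox. Its groups did not overlap, but the log2 fold change of 0.63 ± 0.27 (SE) did not pass (edgeR adjusted p = 0.0839). Pfkfb2 was at 5.72, 14.2 and 7.38 CPM with Dox, so that replicate 11 stood above the other two, against 6.27 to 7.30 CPM without Dox. Pfkfb4 had 16, 9 and 0 counts without Dox and 51, 0 and 31 with Dox, and the groups overlapped (edgeR adjusted p = 0.491). Its log2 fold change of 1.37 ranged from 0.50 without Dox replicate 10 to 1.96 without replicate 4 of the group without Dox.

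Aldolase splits fructose-1,6-bisphosphate into triose phosphates. Aldoa, the main isoform outside liver and brain, was at 78.3, 101 and 95.8 CPM without Dox and 247, 198 and 101.6 CPM with Dox. Replicates 10 and 11 with Dox were well above the libraries without Dox, whereas replicate 12 lay just above the highest of them. The gene rose by 0.99 in log2 units (SE 0.29, edgeR adjusted p = 0.0188), and the call was lost in 5 of the fits that left out a library. The adjusted p was 0.104, 0.0607 and 0.0876 without replicate 4, 5 or 6 of the group without Dox, and 0.0854 and 0.0578 without replicate 10 or 11 of the Dox group. With the length trend removed the log2 fold change of Aldoa was 1.59 (edgeR adjusted p = 0.0019). Aldoc, the brain-type isoform, had 0 to 20 counts without Dox and 12 to 34 with Dox and did not pass (edgeR adjusted p = 0.593). Its log2 fold change of 0.90 was 3.46 when no-Dox replicate 6 was left out and 0.29 when no-Dox replicate 4 was, neither past the threshold. Tpi1, which interconverts the triose phosphates, was at 56.7, 49.7 and 62.05 CPM without Dox and 27.9, 35.3 and 19.2 CPM with Dox. The groups were apart and Tpi1 fell by 1.03 (SE 0.26, edgeR adjusted p = 0.0083), a call that was lost when a trend of fold change with transcript length was removed (log2 fold change -0.46, adjusted p = 0.167).

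Of the 8 genes from Gapdh to the lactate dehydrogenases, all but Eno3 fell. Gapdh, which makes NADH and 1,3-bisphosphoglycerate, was at 275, 219 and 234 CPM without Dox and 45.6, 36.3 and 49.0 CPM with Dox. Its mean with Dox was 18.0% of that without Dox, and it fell by 2.48 in log2 units (SE 0.19, edgeR adjusted p = 7.7e-06). Pgk1, which makes ATP from that product, was at 189.7, 205 and 216 CPM without Dox and 38.1, 52.9 and 51.3 CPM with Dox, a fall of 2.10 (SE 0.19, edgeR adjusted p = 1.86e-05). Pgam1, the mutase that follows, went from 152, 128 and 192 CPM to 57.6, 49.4 and 61.5 CPM and fell by 1.49 (SE 0.20, edgeR adjusted p = 0.00024). In each of these genes the highest library with Dox lay below the lowest without it.

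Enolase makes phosphoenolpyruvate. Eno1, the widespread isoform, was at 78.8, 78.4 and 87.0 CPM without Dox and 21.9, 19.6 and 41.9 CPM with Dox and fell by 1.55 (SE 0.29, edgeR adjusted p = 0.0017). The last 300 bases of Eno1 were identical to those of its intronless copy Eno1b, so reads from the 3′ end cannot tell these genes apart. Eno1b had 942, 767 and 943 counts without Dox and 219, 244 and 337 with Dox and also fell, by 2.20 (SE 0.23, edgeR adjusted p = 5.4e-05). The sum of Eno1 and Eno1b came to 219, 234 and 247 CPM without Dox and 51.7, 44.7 and 86.3 CPM with Dox, so the groups were apart for the sum as well. Eno3, the muscle isoform, was at 16.0, 10.1 and 13.9 CPM without Dox and 4.49, 14.4 and 8.04 CPM with Dox and did not pass (edgeR adjusted p = 0.344).

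Pkm encodes the pyruvate kinases M1 and M2 by alternative splicing, which counts per gene do not separate. It was at 185, 204 and 210.2 CPM without Dox and 41.6, 27.7 and 35.5 CPM with Dox. Levels with Dox averaged 17.5% of those without, and Pkm fell by 2.52 in log2 units (SE 0.20, edgeR adjusted p = 9.1e-06). Besides Eno1, the genes Aldoa, Gapdh, Gpi1, Ldha, Ldhb, Pkm and Tpi1 match other annotated genes, mostly processed pseudogenes, in at least 97% of aligned bases at the 3′ end, and Gapdh matches 87 of them. How reads that fit several copies were counted is not given in the sources used here, so the values of these genes are uncertain.

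The lactate dehydrogenases had the lowest fold changes of the list. Ldha, whose subunit favours the making of lactate, was at 111, 98.1 and 117 CPM without Dox and 8.44, 10.1 and 5.01 CPM with Dox. Its mean with Dox was 7.21% of the level without, and it fell by 3.78 in log2 units (SE 0.28, edgeR adjusted p = 6.1e-06). Ldhb, whose subunit favours the use of lactate, had 158, 80 and 76 counts without Dox and 11, 0 and 2 with Dox. It reached the filter level in all 3 libraries without Dox and in 1 with Dox, so it entered the test through the group where it is high. It fell by 4.94 (SE 0.90, edgeR adjusted p = 0.0015). The size of that change rests on few counts, from -7.04 without Dox replicate 10 to -4.32 without Dox replicate 11, each with an adjusted p-value under 0.05. It was -5.96 with limma-voom and -4.19 with the length trend removed.

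**Figure D3:**
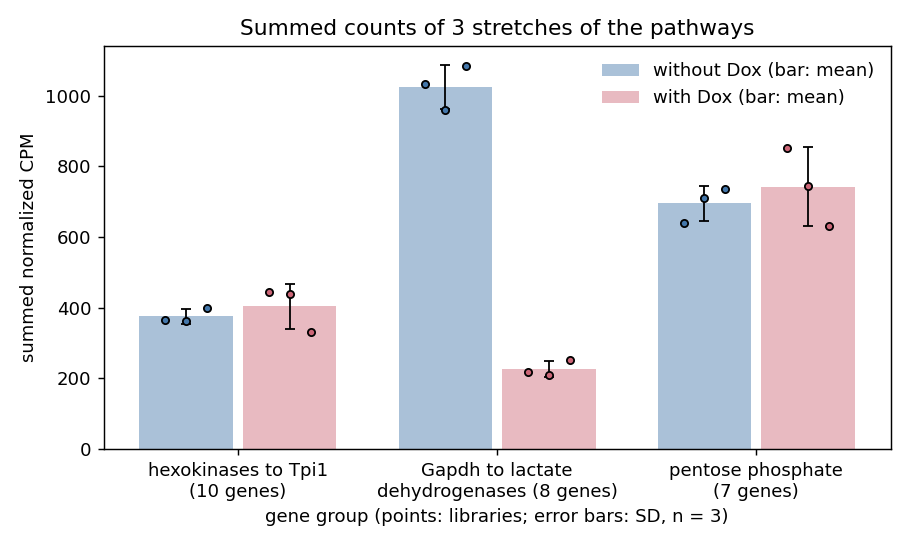
Summed normalized CPM (y axis) of 3 stretches of the pathways, with bars for the mean of 3 libraries, error bars for the SD and points for libraries, blue without Dox and red with Dox. The sum from Gapdh to the lactate dehydrogenases lies at 960 to 1083 CPM without Dox and at 210.4 to 252.5 CPM with Dox, while the other sums overlap.

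The 8 genes from Gapdh to Ldhb together reached a normalized CPM of 1032, 960 and 1083 without Dox and 219, 210.4 and 252.5 with Dox. The 10 genes from the hexokinases to Tpi1 summed to 365, 363 and 401 CPM without Dox and to 443, 439 and 331 CPM with Dox. The pentose phosphate genes summed to 639, 712 and 735 CPM and to 853, 744 and 630 CPM. Only the first of these sums had groups that did not overlap. The summed level of the 15 proliferation genes also stood lower with Dox, at 3191 to 3751 CPM against 4700 to 5061 CPM, as did that of the T cell markers, and their part was not tested.

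Lactate leaves or enters cells through monocarboxylate transporters. Slc16a1, which encodes MCT1, was at 129, 125 and 128 CPM without Dox and 188, 139 and 137 CPM with Dox. The groups did not overlap, but the log2 fold change of 0.28 ± 0.18 (SE) did not pass (edgeR adjusted p = 0.225). It passed when libraries were scaled by size only (adjusted p = 0.023), a setting that raised the median of all genes from 0.07 to 0.38. Slc16a3, which encodes MCT4, a lactate exporter of strongly glycolytic cells, had 10, 6 and 15 counts without Dox and 119, 147 and 36 with Dox. It reached the filter level in 1 library without Dox and in all 3 with Dox, so it too entered the test through the group where it is high. It rose by 2.76 in log2 units (SE 0.63, edgeR adjusted p = 0.0053), with replicate 12 the lowest of the Dox libraries. The call was lost with limma-voom (log2 fold change 2.61, adjusted p = 0.0622). Pdk1, the kinase that switches off pyruvate dehydrogenase, was at 29.2, 29.4 and 24.2 CPM without Dox and 11.02, 7.62 and 13.97 CPM with Dox and fell by 1.35 (SE 0.31, edgeR adjusted p = 0.0056).

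The oxidative branch of the pentose phosphate pathway makes NADPH in a chain of reactions, and its genes did not move alike. G6pdx, the first and rate-limiting enzyme, was at 23.3, 16.6 and 21.02 CPM without Dox and 3.81, 4.32 and 9.22 CPM with Dox. G6pdx has exons that overlap Ikbkg on the other strand, which had 58 to 104 counts without Dox and 28 to 50 with Dox, against 82 to 156 and 28 to 70 for G6pdx, so its value is uncertain unless strand was used. The groups of G6pdx were apart and it fell by 1.81 (SE 0.42, edgeR adjusted p = 0.0056). Exons of Pgls, the lactonase that follows, overlap Fam129c on the same strand, a symbol that the count table lacks, so its value is uncertain. Pgls was at 73.9, 103.8 and 102.9 CPM without Dox and 257, 201 and 112 CPM with Dox. It rose by 1.02 (SE 0.29, edgeR adjusted p = 0.0148), with replicate 12 again near the libraries without Dox. That call was lost without replicate 4 or 6 of the group without Dox (adjusted p = 0.0915 and 0.0630) and without replicate 10 of the Dox group (adjusted p = 0.0673). Pgd, the enzyme of the last oxidative step, was at 36.9, 44.2 and 34.4 CPM without Dox and 41.0, 27.9 and 39.7 CPM with Dox, and the groups overlapped (edgeR adjusted p = 0.780). G6pdx and Pgk1 are X-linked, and Xist, the RNA that coats the silenced X chromosome, had 193 to 324 counts without Dox and 3347 to 5669 with Dox. Of 429 tested X-linked genes 87 rose and 111 fell, with a median log2 fold change of -0.11 (edgeR). Over all tested genes 23.6% rose and 22.1% fell, with a median of 0.07.

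The non-oxidative branch exchanges sugar phosphates with glycolysis, and 3 of its 4 genes did not pass the threshold. Tkt, transketolase, was at 227, 282 and 296 CPM without Dox and 347, 233 and 251 CPM with Dox (0.05 ± 0.19 (SE), edgeR adjusted p = 0.859). Taldo1, transaldolase, went from 197 ± 9 to 174 ± 37 CPM and Rpia, the ribose-5-phosphate isomerase, from 54.5 ± 10.5 to 54.3 ± 7.4 CPM (SD, n = 3 each). With the length trend removed Taldo1 had a log2 fold change of 0.54 and passed the threshold (adjusted p = 0.036), against -0.18 ± 0.18 (SE) and 0.443 as fitted. Rpe, the ribulose-5-phosphate epimerase, was at 19.7, 25.7 and 24.4 CPM without Dox and 4.35, 3.81 and 6.72 CPM with Dox. It fell by 2.23 (SE 0.35, edgeR adjusted p = 0.00065) with groups far apart. The last 300 bases of Rpe lie within Kansl1l on the other strand, which had 219 to 297 counts without Dox and 563 to 638 with Dox, so its value is uncertain unless the counting used strand.

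Isoforms were compared by the ratio of their counts within a library, which needs no scaling between libraries. The kit reads 1 end of each transcript, so these ratios were not divided by length, and only their change between groups was compared. Of 14 pairs, 4 had groups that did not overlap: Pfkl/Pfkm, Pfkl/Pfkp, Hk2/Hk3 and Slc16a1/Slc16a3. The last 2 pairs hold Hk3 and Slc16a3, which passed the filter through the group where they are high. Their ratios and shares are therefore descriptions, given without a p-value. Pfkl/Pfkm and Pfkl/Pfkp each had an exact two-sided permutation p of 0.1, the smallest that 3 against 3 libraries allow. After Benjamini-Hochberg adjustment over the 14 pairs that p was 0.35 for each. As no pair could have had a p below 0.1, this test cannot decide whether a ratio changed. The log2 ratio of Pfkl to Pfkm stood at 0.80, 1.10 and 0.60 without Dox and -0.91, 0.04 and -1.01 with Dox. The difference was -1.46, and against Pfkp it was -1.57. The share of Pfkl in phosphofructokinase counts went from 31.7% ± 9.1 to 14.3% ± 6.8 with Dox (SD, n = 3 each). Pfkm and Pfkp overlap genes on the other strand, as given above, so these ratios and this share are uncertain unless the counting used strand.

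The ratio of Slc16a1 to Slc16a3 on the log2 scale stood at 6.37, 6.57 and 5.61 without Dox and 3.54, 3.19 and 4.83 with Dox. The share of Slc16a3 in the counts of this pair went from 1.35% ± 0.52 to 7.04% ± 3.33 with Dox (SD, n = 3 each). For Hk3 among hexokinase counts it went from 0.72% ± 0.68 to 2.36% ± 0.70 with Dox (SD, n = 3 each), and the ratio of Hk1 to Hk2 overlapped between groups. For Ldha among lactate dehydrogenase counts it went from 86.1% ± 3.8 to 93.3% ± 7.7 with Dox (SD, n = 3 each), and its ratio to Ldhb overlapped. As Ldhb passed the filter through the libraries without Dox, this share and ratio are descriptions as well. Both lactate dehydrogenase genes fell, and with 3 against 3 libraries a permutation test of the difference between their falls could not have passed.

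**Figure D4:**
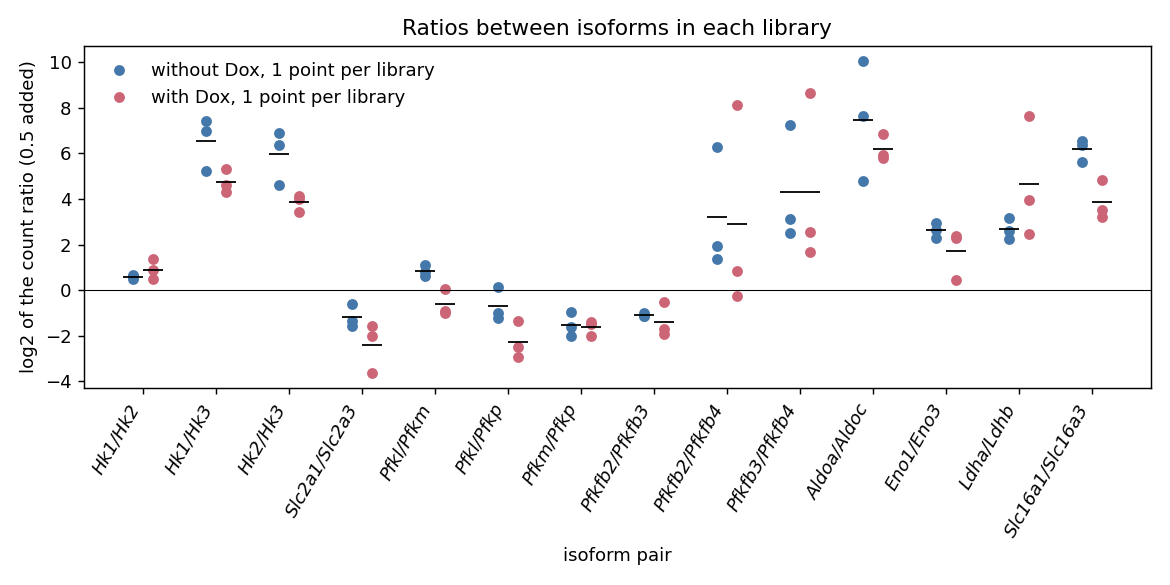
Log2 ratio of the counts of 2 isoforms within each library (y axis, 0.5 added to each count) for 14 pairs (x axis), with blue points without Dox, red points with Dox and a dash for each mean. The red points lie below the blue ones for Pfkl/Pfkm, Pfkl/Pfkp, Hk2/Hk3 and Slc16a1/Slc16a3, and the groups overlap in the other 10 pairs.

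Other genes of glucose metabolism were taken from 5 lists, of which 40 of 93 tested genes were called (43.0%, edgeR), 14 higher and 26 lower. That share was near the 45.6% of all tested genes (23.6% higher and 22.1% lower), and the counts by list are given as descriptions beside it. Of 15 tested genes for pyruvate entry into mitochondria, 8 fell and 0 rose, with a median log2 fold change of -1.11. They included Mpc1, a subunit of the mitochondrial pyruvate carrier, which fell by 2.28 (SE 0.39, adjusted p = 0.0011), and Dlat, a subunit of pyruvate dehydrogenase, which fell by 1.81 (SE 0.49, adjusted p = 0.0122). Of 13 tested genes of NADPH and ribose phosphate supply, 6 fell and 1 rose. The ribose phosphate kinases Prps1 and Prps2 fell by 1.85 and 1.74 (edgeR adjusted p = 0.00017 and 0.00045), whereas Idh1, a cytosolic source of NADPH, rose by 1.72 (adjusted p = 0.0211). The groups of Idh1 overlapped, at 15.2, 11.1 and 20.0 CPM without Dox against 66.1, 72.5 and 14.4 CPM with Dox, so replicates 10 and 11 carried its rise.

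Among 20 tested genes of other glycolytic enzymes and transporters, 3 rose and 3 fell. Bpgm, which makes 2,3-bisphosphoglycerate in red cells, went from 60.5 ± 6.4 to 90.9 ± 18.9 CPM (SD, n = 3 each; edgeR adjusted p = 0.0394), in libraries with a larger share of haemoglobin counts, whose part was not tested. The phosphatase gene Pgp rose by 0.58 (adjusted p = 0.0250), and Galk1, galactokinase, fell by 1.46 (adjusted p = 0.00065), both by edgeR. For gluconeogenesis and glycogen 4 of 18 tested genes rose and 3 fell. Gys1, a glycogen synthase, went from 7.05 ± 1.02 to 40.5 ± 4.6 CPM (SD, n = 3 each; edgeR adjusted p = 5.9e-05) and Phka2, a subunit of phosphorylase kinase, rose by 1.72 (adjusted p = 0.0041).

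Regulators were split, with 6 of 27 tested genes higher and 6 lower. Egln3, a prolyl hydroxylase that hypoxia-inducible factors induce, fell from 58.9 ± 9.0 to 1.46 ± 2.07 CPM (SD, n = 3 each; edgeR adjusted p = 0.00051). Like Ldhb it entered the test through the libraries without Dox, with 0.54, 0 and 3.82 CPM in those with Dox. The genes of the hypoxia-inducible factors themselves were not called. By edgeR, Hif1a had a log2 fold change of -0.83 (adjusted p = 0.071), Epas1 of 0.19 (adjusted p = 0.436) and Arnt of -0.16 (adjusted p = 0.702). Myc fell by 3.89 (SE 0.21, edgeR adjusted p = 1.87e-06). Egln2, another prolyl hydroxylase, rose by 1.03 (SE 0.22, adjusted p = 0.0039), and Mlxip, a glucose-sensing transcription factor, rose by 1.53 (SE 0.28, adjusted p = 0.0015), both by edgeR.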

How the data were processed

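Spleen RNA was measured in 6 libraries. The values deposited by the authors are unnormalized read counts for each gene ID, and 0 columns of the table were left unmatched to a sample. Libraries were made with a kit that reads the 3′ end of polyadenylated RNA, per the labels' protocols. STAR, featureCounts and GRCm38 are named without versions in the submitters' processing notes. Strand and multi-mapping settings are not given in the sources used here. Symbols came from RefSeq GRCm38.p6 (39374 of 40808 IDs, 96.5%), and 3′ ends were compared with GENCODE transcripts by blastn.

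Counts were filtered with filterByExpr (minimum count 10), scaled with TMM factors and tested with edgeR 4.0.16 in R 4.3.3 (glmQLFTest, no covariate, threshold 0.05). SEs were derived from the F statistic. Isoform ratios had 0.5 added to each count and an exact permutation test. Of the 33 genes, 28 passed the filter level in every library; Hk3, Pfkfb4, Aldoc, Ldhb and Slc16a3 did not. The test was also run on simulated counts in which far fewer genes changed than were called here, so that run does not measure error rates in these data.

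The genes and lists were chosen with earlier results of these data known. All 33 genes are named, and of the 5 other lists the 2 called genes with the largest changes in each direction at or above median expression. Hif1a, Epas1 and Arnt were named besides, with their values known. Alternatives were other scalings, filters, tools (DESeq2 1.42.0, limma 3.58.1), thresholds, pseudocounts and leaving out each library; removing a length trend was added after seeing the data.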

Additional observations from a re-analysis of the deposited data

How the results depend on the processing

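No paired analysis was possible because replicates 4 to 6 and 10 to 12 have no number in common. Of the 12 listed genes that fell, 11 kept direction and threshold in each alternative that tested them, the exception being Tpi1 with the length trend removed; the strict filter did not test Ldhb. The number of listed genes that rose was 3 as fitted, 6 with library size only, 1 at an adjusted p under 0.01, and 1 to 3 when a library was left out; the number that fell was 12 in each of those. At that threshold 2200 genes rose in place of 3324, and 25 other pathway genes were called in place of 40. Without a library, 2284 to 3396 genes rose, 2459 to 3629 fell and 27 to 47 pathway genes were called. The share of higher genes among all called, 51.6%, was 64.3% with library size only, which moved the median over all tested genes to a log2 fold change of 0.38. That share was 44.7% with no filter beyond 0 counts in all libraries and 45.1% with limma-voom.

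None of the 15 called genes reversed. Of genes that were not called, 9 changed sign in some alternative, and the cause was not tested. With library size only, Hk2 was 0.13, Pgd 0.22, Taldo1 0.13 and Rpia 0.30 on the log2 scale. With upper-quartile factors Pgd was 0.0076 and Rpia 0.093, and with 10 counts in every library 0.028 and 0.11. Without a filter Hk1 was -0.036 and Tkt -0.082. With quality weights Pfkfb4 was -0.22 and Rpia 0.028. With the length trend removed Eno3 was 0.024, Taldo1 0.54 and Rpia 0.054, and Pfkp passed the threshold (-1.06, adjusted p = 0.0166). Leaving out a library gave ranges of -0.0096 to 0.15 for Hk1, -0.050 to 0.67 for Pfkfb2, -0.25 to 0.044 for Pgd, -0.17 to 0.13 for Tkt and -0.19 to 0.076 for Rpia. Pfkfb3 passed with library size only (adjusted p = 0.0163) and with 10 counts in every library (adjusted p = 0.0453).

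Of the isoform ratios, the difference for Pfkfb3/Pfkfb4 was 0.018 with 1 added and 0.15 with 5 added, and that for Aldoa/Aldoc was 0.078 with 5 added. Leaving out a library gave -0.35 to 0.18 for Pfkm/Pfkp, -2.91 to 1.29 for Pfkfb2/Pfkfb4 and -2.19 to 1.48 for Pfkfb3/Pfkfb4.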

Other observations

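Aldoa and Pgls, which both rose, had nearly the same counts in each library. Aldoa had 525, 500 and 565 counts without Dox and 1813, 1922 and 771 with Dox, and Pgls had 495, 512 and 607 without Dox and 1889, 1952 and 851 with Dox. The difference was 1.56% to 10.4% of the Aldoa count over the 6 libraries, and Pgls was the 1 gene with a symbol that lay as close to Aldoa in all 6. The genes lie on chromosomes 7 and 8, and the comparison was chosen after their values were seen.

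The pseudogene Gm12070, whose sequence matched the last 300 bases of Gapdh in full, had 139, 90 and 167 counts without Dox and 50, 92 and 70 with Dox. These were 7.55% to 12.1% of the Gapdh counts without Dox and 14.9% to 26.1% with Dox.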
